A study of Mus musculus with 20 samples.

Results

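The let-7 family was followed here through every arm that the small RNA table of the ventral hippocampus holds. Members were the rows whose name starts with mmu-let-7, together with any mir-98 row, and they made up 14 of 281 miRNAs. There were 9 members from the 5p arm of their hairpin, namely mmu-let-7a-5p, mmu-let-7b-5p, mmu-let-7c-5p, mmu-let-7d-5p, mmu-let-7e-5p, mmu-let-7f-5p, mmu-let-7g-5p, mmu-let-7i-5p and mmu-miR-98-5p. The 5 members from the 3p arm were mmu-let-7b-3p, mmu-let-7c-2-3p, mmu-let-7d-3p, mmu-let-7e-3p and mmu-let-7i-3p. The mouse prefix is dropped from here on. The libraries came from the right ventral hippocampus of 10 mice given cannabidiol (CBD), a non-intoxicating plant cannabinoid, and of 10 mice given vehicle. CBD was injected intraperitoneally at 200 mg/kg/day, split over 2 injections a day for 5 days. All 20 animals were naïve wildtype C57BL/6JOlaHsd males, and the sources used here give neither their age nor the make-up of the vehicle.

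let-7 was found as a gene that times larval development in Caenorhabditis elegans and is conserved from worms to mammals. A hairpin precursor is cut by Drosha and Dicer, 1 strand is kept by an Argonaute protein, and the seed near its 5′ end pairs with sites in messenger RNAs that are then repressed. LIN28 blocks the maturation of let-7 precursors in stem cells. Mature let-7 accumulates as cells differentiate, and the family is abundant in adult brain.

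The 5p members are shown first because a single seed, in capitals (bases 2 to 8), defines the family, while the lower-case letters tell the members apart. Sequences and positions are those of RefSeq on GRCm38.p6, the assembly that mm10 also stands for, and each member is 22 bases long.
let-7a-5p: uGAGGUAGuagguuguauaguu
let-7b-5p: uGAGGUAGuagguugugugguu
let-7c-5p: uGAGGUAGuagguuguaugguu
let-7d-5p: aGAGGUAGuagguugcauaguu
let-7e-5p: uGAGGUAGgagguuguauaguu
let-7f-5p: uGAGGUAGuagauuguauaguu
let-7g-5p: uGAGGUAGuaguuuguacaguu
let-7i-5p: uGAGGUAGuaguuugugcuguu
miR-98-5p: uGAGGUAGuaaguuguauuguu

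Counted from 1 at the 5′ end and set against let-7a-5p, let-7c-5p carried A19G and let-7b-5p carried A17G and A19G. let-7d-5p carried U1A and U16C, let-7e-5p carried U9G, and let-7f-5p carried G12A. let-7g-5p differed by G12U and U18C, let-7i-5p by G12U, A17G, U18C and A19U, and miR-98-5p by G11A and A19U. Several pairs thus lie 1 base apart, and the sources used here do not say how a read with a sequencing error was assigned, so the split of reads between such neighbours is uncertain. The seed GAGGUAG was held by 10 measured miRNAs, the 9 members and miR-1961, a 17-base entry on chromosome 5.

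The 3p members are shown because their seeds, again in capitals, are not those of the 5p members and differ among themselves.
let-7b-3p: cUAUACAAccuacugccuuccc
let-7c-2-3p: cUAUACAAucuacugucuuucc
let-7d-3p: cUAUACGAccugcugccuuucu
let-7e-3p: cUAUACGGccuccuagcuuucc
let-7i-3p: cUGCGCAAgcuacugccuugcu

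let-7b-3p and let-7c-2-3p shared the seed UAUACAA and differed by C9U, C16U and C20U, written from let-7b-3p. let-7d-3p differed from let-7b-3p by A7G, A12G, C20U and C22U. The letters of let-7c-2-3p also occur in the Mirlet7a-1 hairpin, so its reads cannot be given to 1 gene.

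The measured members trace to 12 hairpins. Mirlet7a-1, Mirlet7f-1 and Mirlet7d lie on the minus strand at chr13:48538179-48538272, chr13:48537829-48537917 and chr13:48536012-48536114, all in an exon of the long non-coding RNA 6720427I07Rik. Mirlet7c-2 (chr15:85706603-85706697) and Mirlet7b (chr15:85707319-85707403) lie on the plus strand in an exon of the long non-coding RNA Lncppara. Mirlet7c-1 (chr16:77599657-77599750, plus strand) sits in an intron of Mir99ahg, 656 bases from Mir99a. Mirlet7e (chr17:17830352-17830444, plus strand) sits in an intron of Spaca6, 367 bases from Mir125a. Mirlet7f-2 and Mir98 lie 785 bases apart on the plus strand in an intron of Huwe1 (chrX:151912346-151912428 and chrX:151913214-151913321). Mirlet7g (chr9:106178840-106178927, plus strand) is intronic in Wdr82. Mirlet7i (chr10:122985640-122985724, minus strand) is in an exon of the pseudogene D630033A02Rik. The mature let-7a-5p also occurs in Mirlet7a-2 (chr9:41536716-41536811, plus strand), in introns of 3110039I08Rik and Gm49317. let-7a-5p, let-7c-5p and let-7f-5p are therefore each the sum of 2 hairpins, and the table cannot split them.

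The listed totals lay between 326559 and 1245429 reads in CBD libraries and between 242178 and 1169139 reads in vehicle libraries. Each library also carries a run number from 1 to 4 whose meaning is not given. Runs 1 to 4 held 5, 6, 4 and 5 libraries, of which 3, 3, 2 and 2 were from CBD mice. Neuronal miRNAs were high, as in brain tissue. The levels of miR-9-5p, miR-124-3p and miR-128-3p summed to between 100417 and 199184 reads per 1000000 in CBD libraries and between 114806 and 169796 in vehicle libraries. The 3 oligodendrocyte miRNAs summed to between 291 and 833 reads per 1000000 in CBD libraries and between 471 and 1986 in vehicle libraries. Blood vessel miRNAs summed to 2238 to 5120 in CBD and 2634 to 9221 in vehicle libraries. The 2 measured of 5 immune miRNAs summed to 2175 to 14163 in CBD and 2655 to 24556 in vehicle libraries. The 3 measured of 5 choroid plexus and ependyma miRNAs summed to 3972 to 23526 in CBD and 4010 to 33025 in vehicle libraries. In bulk tissue, fewer cells of a type and less RNA per cell cannot be told apart. Mice of a group were separate animals, with no replicate pairing between groups.

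As a whole the family took 14.6% ± 3.19 of all listed reads in CBD libraries and 14.2% ± 1.84 in vehicle libraries (SD, n = 10 each). Its share ran from 11.5% to 20.3% in CBD libraries and from 10.1% to 16.4% in vehicle libraries, so the ranges overlapped between 11.5% and 16.4%. CBD 3 and CBD 8 lay above all vehicle libraries, and vehicle 5 lay below all CBD libraries. Nearly all of these reads came from the 5p arms, 98.4% ± 0.480 of the family's reads in CBD libraries and 98.0% ± 1.29 in vehicle libraries. let-7c-5p, encoded once beside Mirlet7b and once beside Mir99a, alone made up 58.4% ± 6.31 of the family's reads in CBD libraries and 52.1% ± 2.84 in vehicle libraries. With CBD 8, the library highest for let-7c-5p, left out, the mean share in CBD libraries was 57.2% ± 5.35 (SD, n = 9). let-7b-5p followed with 10.9% ± 1.84 in CBD libraries and 11.96% ± 2.75 in vehicle libraries. let-7f-5p held 7.61% ± 2.37 in CBD libraries and 9.90% ± 2.33 in vehicle libraries, and let-7g-5p held 2.83% ± 1.00 in CBD libraries and 3.71% ± 0.694 in vehicle libraries. These shares are not independent of each other, since a higher share of let-7c-5p lowers the rest, and they are given without a test.

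On the scale of the deposited values, log2 reads per 1000000, the members spanned ranks 3 to 269 of the table. Over the 20 libraries let-7c-5p averaged 16.26 and ranked 3 of 281. Only miR-434-3p and miR-9-5p, ranked 1 and 2, stood above it. let-7b-5p (13.97), let-7f-5p (13.54), let-7a-5p (13.26) and let-7i-5p (13.10) ranked 12, 13, 16 and 19. let-7d-5p (12.16), let-7g-5p (12.12) and let-7e-5p (11.53) ranked 31, 32 and 41. let-7d-3p was the highest 3p arm at 10.65 and rank 69, above miR-98-5p at 10.30 and rank 81. The other 3p arms were let-7b-3p at 8.62, let-7c-2-3p at 6.94, let-7e-3p at 6.34 and let-7i-3p at 6.13, the last at rank 269. All members have the same length, but small RNA ligation favours some ends over others, so this order is one of reads and its relation to molecules was not tested.

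**Figure D1:**
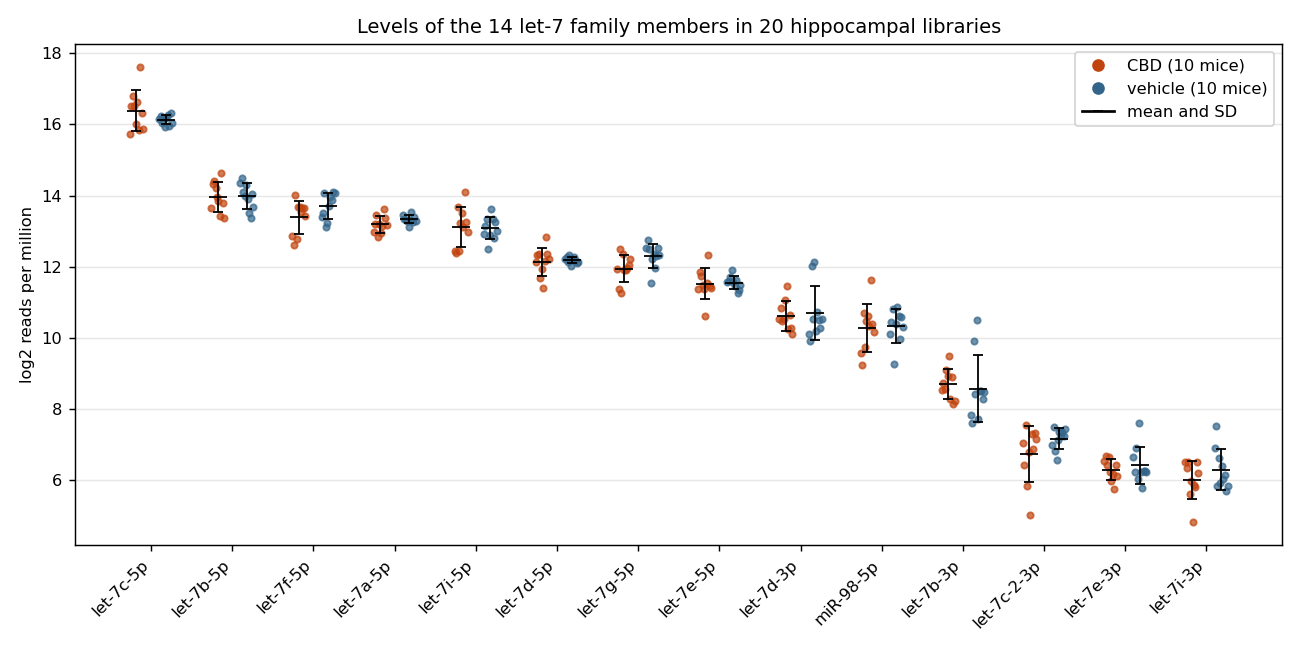
Each point is the level of a member in 1 library (vertical axis, log2 reads per 1000000), CBD libraries on the left of each pair and vehicle libraries on the right, with bars for mean and SD (n = 10 each). let-7c-5p sits apart from all other members, and the CBD points of let-7c-5p and let-7d-5p spread more widely than the vehicle points.

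Between neighbours in this order, the mean difference within a library exceeded its SD over the 20 libraries for 6 of 13 pairs. let-7c-5p stood above let-7b-5p by 2.29 ± 0.35 (log2, SD, n = 20), in 20 of 20 libraries. let-7i-5p stood above let-7d-5p by 0.94 ± 0.47, also in 20 of 20 libraries. The other gaps beyond their spread were let-7g-5p over let-7e-5p (0.59 ± 0.55), let-7e-5p over let-7d-3p (0.88 ± 0.71), miR-98-5p over let-7b-3p (1.68 ± 0.86) and let-7b-3p over let-7c-2-3p (1.69 ± 1.13). Adjacent members among let-7b-5p, let-7f-5p, let-7a-5p and let-7i-5p did not differ beyond this spread. Non-adjacent ones did, such as let-7b-5p over let-7i-5p (0.87 ± 0.53) and let-7f-5p over let-7i-5p (0.45 ± 0.34). Nor did let-7d-5p and let-7g-5p, let-7d-3p and miR-98-5p, or adjacent members of the 3 lowest 3p arms differ beyond it. Among those arms, let-7c-2-3p stood above let-7i-3p by 0.80 ± 0.54.

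CBD was compared with vehicle by limma over all 281 miRNAs, and no member passed. At a Benjamini-Hochberg adjusted p under 0.05, 0 of 14 members were called, beside 0% of all 281 miRNAs. At an unadjusted p under 0.05 there were 0 of 14 members, beside 22 of 281 miRNAs or 7.83%. edgeR's quasi-likelihood test on the recovered reads also called 0 of 281 after adjustment, with 25 at an unadjusted p under 0.05. The 14 members held 3 with a higher and 11 with a lower mean in CBD mice, with a median difference of -0.07 (log2). Over all miRNAs 108 were higher and 173 lower, with a median of -0.08. Each member's interval covered 0.

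let-7g-5p, whose precursor is a well-studied LIN28 substrate in mouse stem cells, had the lowest p of the members. Its log2 level ran from 11.26 through a median of 11.94 to 12.50 in CBD libraries, against 11.55 through 12.33 to 12.76 in vehicle libraries. The groups overlapped over most of this range, and 8 of 10 CBD libraries lay below the vehicle mean. The difference was -0.36 ± 0.18 (log2, SE; 95% interval -0.72 to 0.0040), with p = 0.0524 and adjusted p = 0.578 by limma. Within runs 1 to 4 it was -0.71, -0.25, -0.22 and -0.26. With run as a term the difference was again -0.36, with p = 0.0472 and adjusted p = 0.332 by limma. An exact two-sided permutation of the labels within runs gave p = 0.0484 and adjusted p = 0.332 over 281 miRNAs. With the run term 42 of 281 miRNAs and 1 of 14 members fell under an unadjusted p of 0.05.

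let-7f-5p, which favours angiogenesis in human endothelial cells, had levels from 12.60 through 13.58 to 14.01 in CBD libraries, against 13.10 through 13.79 to 14.11 in vehicle libraries. Its lowest values were all in CBD libraries, yet the upper ends met. It differed by -0.32 ± 0.19 (log2, SE; adjusted p = 0.619, limma), and 9 of 10 CBD libraries lay under the mean of vehicle libraries. Within runs 1 to 4 the difference was -0.29, -0.09, -0.25 and -0.49.

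let-7c-5p went the other way on average. Its level ran from 15.74 through 16.43 to 17.63 in CBD libraries, against 15.93 through 16.17 to 16.34 in vehicle libraries. CBD libraries lay both above and below all vehicle libraries. The difference was 0.26 ± 0.19 (log2, SE; adjusted p = 0.712, limma) and was 0.12 without CBD 8. Within runs 1 to 4 it was 0.17, 0.33, 0.51 and -0.01.

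let-7c-2-3p, the 3p arm across from the most abundant member, ran from 5.01 through 6.95 to 7.55 in CBD libraries, against 6.55 through 7.22 to 7.48 in vehicle libraries. The lowest values were in CBD libraries and the upper ends were shared. Its difference was -0.43 ± 0.26 (log2, SE; adjusted p = 0.619, limma), and -0.24 without CBD 6, the lowest library. It rested on 7 reads in that library. Within runs 1 to 4 the difference was -0.24, -0.95, -0.20 and -0.10.

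let-7a-5p, the reference sequence of the family, averaged 13.19 ± 0.24 in CBD libraries and 13.33 ± 0.11 in vehicle libraries (log2, SD, n = 10 each). It differed by -0.14, and by -0.20, -0.25, -0.04 and -0.04 within runs 1 to 4. let-7b-5p, which in mouse neural stem cells represses Tlx and cyclin D1, averaged 13.96 ± 0.43 in CBD libraries and 13.98 ± 0.37 in vehicle libraries. let-7d-5p, another regulator of Tlx in mouse neural stem cells, averaged 12.13 ± 0.40 in CBD libraries and 12.18 ± 0.09 in vehicle libraries. let-7i-5p averaged 13.11 ± 0.57 in CBD libraries and 13.08 ± 0.32 in vehicle libraries. let-7e-5p averaged 11.51 ± 0.44 in CBD libraries and 11.55 ± 0.18 in vehicle libraries. miR-98-5p averaged 10.28 ± 0.67 in CBD libraries and 10.33 ± 0.47 in vehicle libraries. All of these except let-7a-5p differed by less than either SD, while let-7a-5p differed by more than its vehicle SD. The intervals of these members were wide. For let-7b-5p the interval of the difference was -0.40 to 0.36 and for miR-98-5p it was -0.57 to 0.47.

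**Figure D2:**
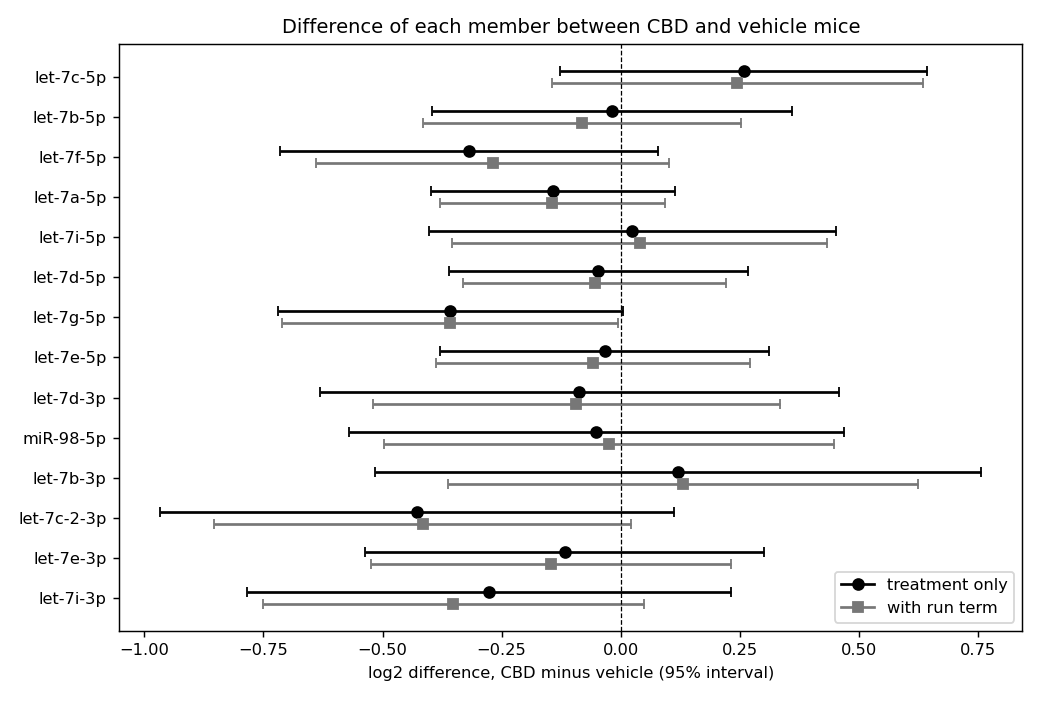
Horizontal position is the log2 difference, CBD minus vehicle, with its 95% interval, for each member from the most abundant at the top (n = 10 each), without (black) and with (grey) a run term. Every black interval covers 0, and only the grey interval of let-7g-5p ends just below it.

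The remaining 3p arms differed by 0.12 (let-7b-3p), -0.09 (let-7d-3p), -0.12 (let-7e-3p) and -0.28 (let-7i-3p), each with adjusted p of at least 0.811 by limma. Within runs, let-7b-3p differed by 0.90, -0.43, 0.50 and -0.24 in runs 1 to 4, and let-7i-3p by -0.76, -0.66, -0.38 and 0.47. The sign of both thus changed between runs. Single libraries also moved these values. let-7b-3p differed by 0.013 without vehicle 2 and by 0.34 without vehicle 5, and let-7i-3p by -0.14 without either CBD 6 or vehicle 2 and by -0.34 without vehicle 9. In the authors' deposited table, 3 of 14 members and 66 of 281 rows had an unadjusted p under 0.05 and no row an adjusted one. Those members were let-7g-5p (-0.36, adjusted p = 0.160), let-7c-2-3p (-0.42, adjusted p = 0.186) and let-7i-3p (-0.37, adjusted p = 0.210) in the authors' deposited table. miR-1961, which shares the family's seed, averaged 7.53 ± 1.21 in CBD libraries and 6.54 ± 1.502 in vehicle libraries (log2, SD, n = 10 each, adjusted p = 0.619, limma).

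The spread within each group was also described. The SD over libraries was higher in CBD than in vehicle mice for 9 of 9 5p members and for 1 of 5 3p members, beside 132 of 281 miRNAs or 47.0%. For let-7c-5p the SD was 0.57 in CBD libraries and 0.13 in vehicle libraries, a ratio of 4.28. For let-7d-5p it was 0.40 in CBD libraries and 0.09 in vehicle libraries, a ratio of 4.38. A ratio above 2 was found for 5 of 14 members, beside 17 of 281 miRNAs. A pair of CBD libraries held many of the extremes. On the deposited scale, CBD 8 was the highest CBD library for let-7a-5p, let-7b-5p, let-7c-5p, let-7d-5p, let-7e-5p, let-7i-5p and miR-98-5p. CBD 6 was the lowest CBD library for let-7d-5p, let-7e-5p, let-7c-2-3p and let-7i-3p. With both left out the SD was higher in CBD mice for 8 of 9 5p members, beside 93 of 281 miRNAs, and the ratio was 2.94 for let-7c-5p and 2.58 for let-7d-5p, but 0.969 for let-7e-5p. Libraries were also centred on the mean of their own group within their run, a set of 2 or 3 libraries. With this centring the SD was higher in CBD mice for 9 of 9 5p members, beside 197 of 281 miRNAs or 70.1%. This was described after the values were seen and was not tested, and the groups differ in how their libraries fall over the runs. The library size behind the deposited values was 0.693 times the listed total in CBD 8 and 0.714 times in CBD 6. These were the lowest such ratios of all libraries, and a low ratio raises every level in its library. The spread of values rescaled to the listed totals was not examined.

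**Figure D3:**
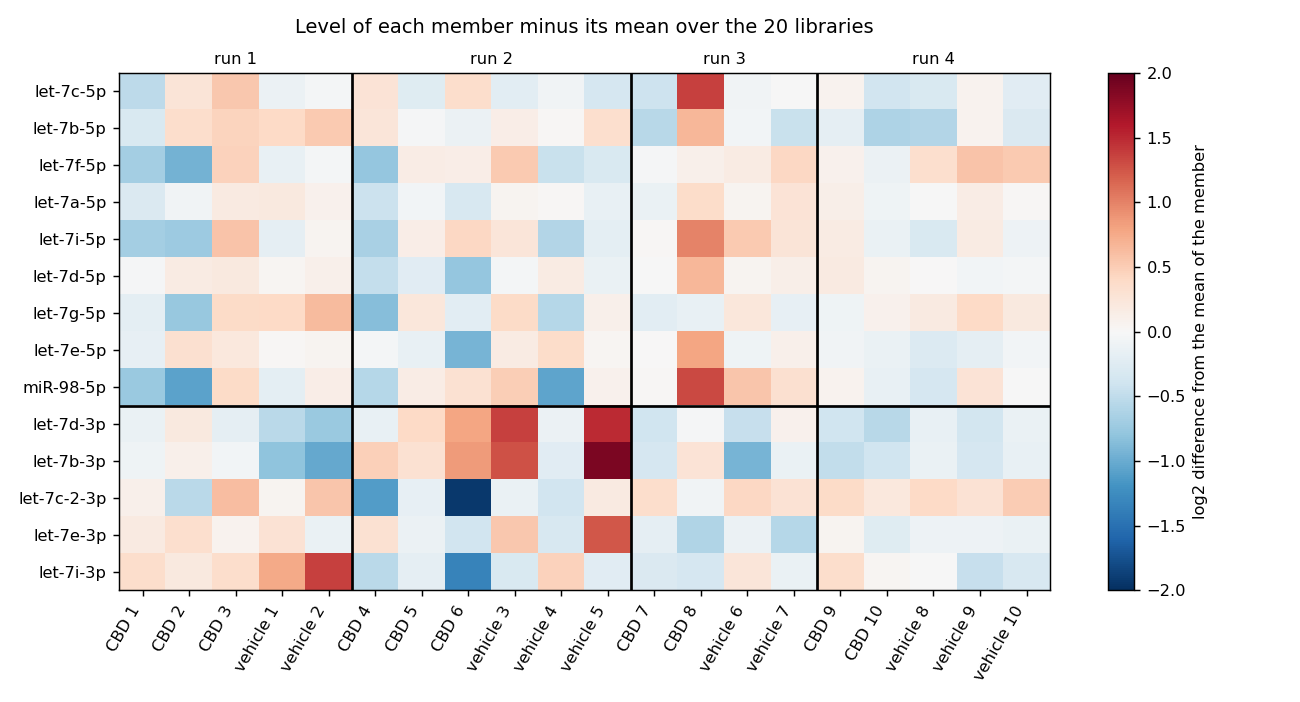
Each cell is the level of a member (rows) in 1 library (columns, grouped by run with CBD libraries left of vehicle libraries), as the log2 difference from that member's mean over 20 libraries. CBD 8 is high for most 5p members, vehicle 3 and vehicle 5 are high for let-7b-3p and let-7d-3p, and CBD 6 is low for let-7c-2-3p and let-7i-3p.

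The 5p arm was more abundant than the 3p arm in 5 of 5 member pairs, beside 45 of 76 arm pairs in the table. As the mean within-library difference over 20 libraries, let-7i-5p exceeded its 3p arm by 6.96 ± 0.79 (log2, SD), let-7b-5p by 5.35 ± 0.75 and let-7e-5p by 5.19 ± 0.53. On a linear scale these were ratios of 124.8, 40.7 and 36.5. let-7d stood apart with 1.51 ± 0.75, a ratio of 2.84. In let-7d the 3p arm was the higher one in at least 1 library of each group, with a lowest difference of -0.06 in CBD libraries and -0.11 in vehicle libraries. let-7c-5p exceeded let-7c-2-3p by 9.33 ± 0.84, a value that mixes hairpins on both sides.

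None of these ratios differed between the groups after adjustment, 0 of 5 beside 0 of 76 arm pairs or 0%. The let-7c difference between arms was 9.67 ± 1.06 in CBD libraries and 8.99 ± 0.32 in vehicle libraries (log2, SD, n = 10 each). It ran from 8.56 through 9.25 to 11.61 in CBD libraries, against 8.61 through 8.94 to 9.64 in vehicle libraries. The groups shared their lower ends, and the highest values were all in CBD libraries. The difference of 0.69 ± 0.34 (log2, SE) had p = 0.0528 and adjusted p = 0.691 by limma over 76 pairs, and was 0.47 without CBD 6. Within runs 1 to 4 it was 0.41, 1.28, 0.72 and 0.09, and with run as a term 0.66, with adjusted p = 0.378 by limma. The other arm differences were -0.14 (let-7b), 0.04 (let-7d), 0.08 (let-7e) and 0.30 (let-7i), with adjusted p of at least 0.787.

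Levels and arm ratios were also compared between runs. By limma's F-test of the run number with treatment in the model, 4 of 14 members differed between runs, all of them 3p arms, and 0 of 9 5p arms did, beside 135 of 281 miRNAs or 48%. This split depended on scaling. With values rescaled to 1 total per library 6 of 14 members were called, the same 4 3p arms and 2 of 9 5p arms, let-7b-5p (adjusted p = 0.0450, limma) and let-7d-5p (adjusted p = 0.0441, limma), beside 136 of 281 miRNAs. let-7b-3p averaged 8.24, 9.38, 8.34 and 8.32 in runs 1 to 4 (adjusted p = 0.0172). let-7d-3p averaged 10.37, 11.28, 10.45 and 10.33 (adjusted p = 0.0190). Both were high in run 2. let-7i-3p was high in run 1 instead, with 6.74, 5.78, 6.00 and 6.05 (adjusted p = 0.0215). let-7c-2-3p was low in run 2, with 7.09, 6.35, 7.18 and 7.29 (adjusted p = 0.0317). Among vehicle libraries alone, let-7i-3p was called (adjusted p = 0.0455), while let-7b-3p (0.0514) and let-7d-3p (0.0516) just missed, with 91 of 281 miRNAs called. The arm ratio differed between runs for let-7b (adjusted p = 0.0222), let-7d (0.00613) and let-7i (0.0286), 3 of 5 beside 34 of 76 arm pairs or 44.7%. That the 3p arms differed more between runs than the 5p arms was not tested.

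**Figure D4:**
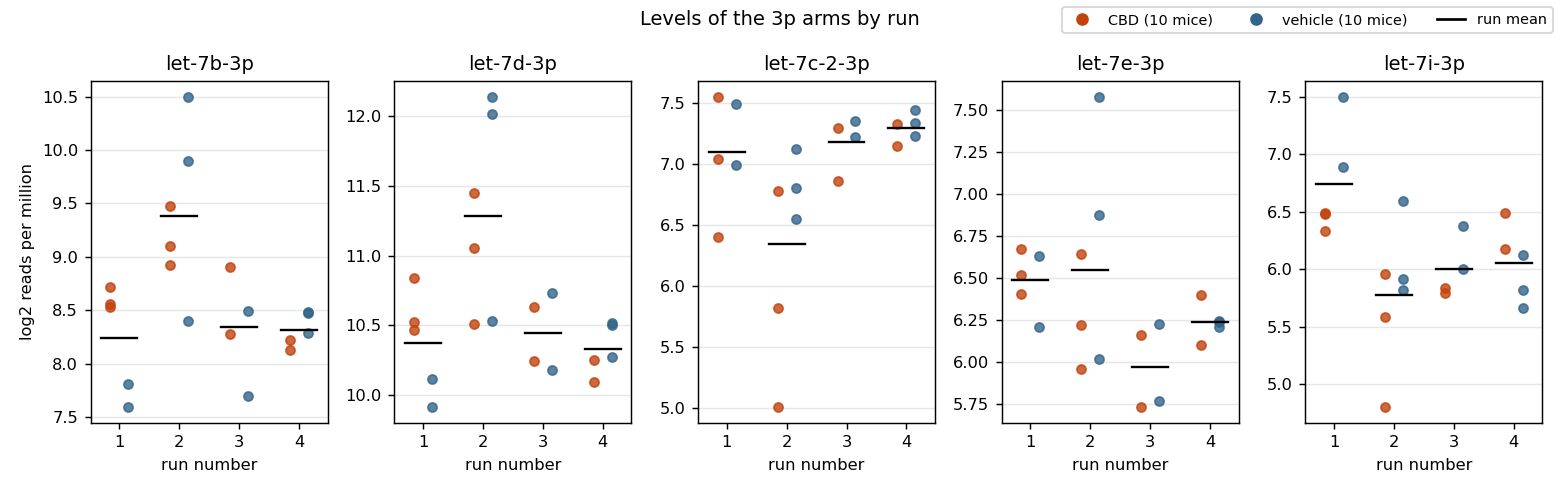
Each panel shows a 3p arm, with the level in each library (vertical axis, log2 reads per 1000000, its own scale per panel) by run number, CBD libraries left of vehicle libraries and a bar for the run mean. let-7b-3p and let-7d-3p peak in run 2, mainly in vehicle 3 and vehicle 5, and let-7c-2-3p has its lowest run mean in run 2.

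The high values in run 2 came mostly from 3 libraries. let-7b-3p lay 0.85 above its mean over 20 libraries in CBD 6, 1.27 in vehicle 3 and 1.88 in vehicle 5 (log2). let-7d-3p lay 0.80 above its mean in CBD 6, 1.37 in vehicle 3 and 1.49 in vehicle 5. These were shallow libraries, with 326559 reads in CBD 6, 342633 in vehicle 3 and 242178 in vehicle 5. Vehicle 1, at 325710 reads, was as shallow, and there let-7b-3p lay 0.81 below its mean, a deviation of -0.81. GC-rich miRNAs outside the family (at least 55% G or C, 66 miRNAs) had a median deviation of 0.71 in CBD 6, 0.51 in vehicle 3 and 0.74 in vehicle 5. For GC-poor miRNAs (under 40% G or C, 39 miRNAs) it was -0.11, -0.00083 and -0.41. The library size behind the deposited values was 0.714, 0.956 and 0.788 times the listed total in these libraries, and a low ratio raises every level. let-7b-3p and let-7d-3p are 50.0% G or C. let-7i-3p, the member richest in G and C with 59.1%, deviated by -1.33 in CBD 6, -0.31 in vehicle 3 and -0.22 in vehicle 5. It had only 6 reads in CBD 6, 18 in vehicle 3 and 11 in vehicle 5. let-7e-3p, with 54.5% G or C, stood at 5.96 in CBD 6, 6.88 in vehicle 3 and 7.58 in vehicle 5, against a mean of 6.34. The part of depth, scaling and base composition in these levels was not tested.

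Pairs of members were compared by the SD, over the 20 libraries, of their log2 difference within a library, a measure that does not depend on how libraries are scaled. A small SD means that a ratio stayed nearly constant. The points share libraries and reads of near-identical sequence, and no test was made. The median SD was 0.429 over 36 pairs of 5p members, 0.700 over 10 pairs of 3p members and 0.734 over 45 pairs of unlike arms, beside 0.817 over all 39340 pairs in the table. The SD expected from counting reads alone ran from 0.017 to 0.067 in 5p pairs and from 0.108 to 0.338 in 3p pairs. In pairs of unlike arms it ran from 0.048 to 0.264. Counting error was thus larger in many pairs that hold a 3p arm, and these medians were not corrected for that. For let-7d-3p with 5p members it was only 0.048 to 0.073, beside observed SDs of 0.664 to 0.767. The part of counting in these medians was not tested. The closest pair was let-7a-5p and let-7d-5p, with 0.178. They share a cluster on chromosome 13, but reads of let-7a-5p can also come from Mirlet7a-2 on chromosome 9. let-7d-5p and let-7e-5p, on chromosomes 13 and 17, had 0.181. let-7i-5p and miR-98-5p, on chromosomes 10 and X, had 0.192. These are the only members that carry A19U, which was noticed after the values were seen. Among 3p arms, let-7b-3p and let-7d-3p, on chromosomes 15 and 13, had 0.245.

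**Figure D5:**
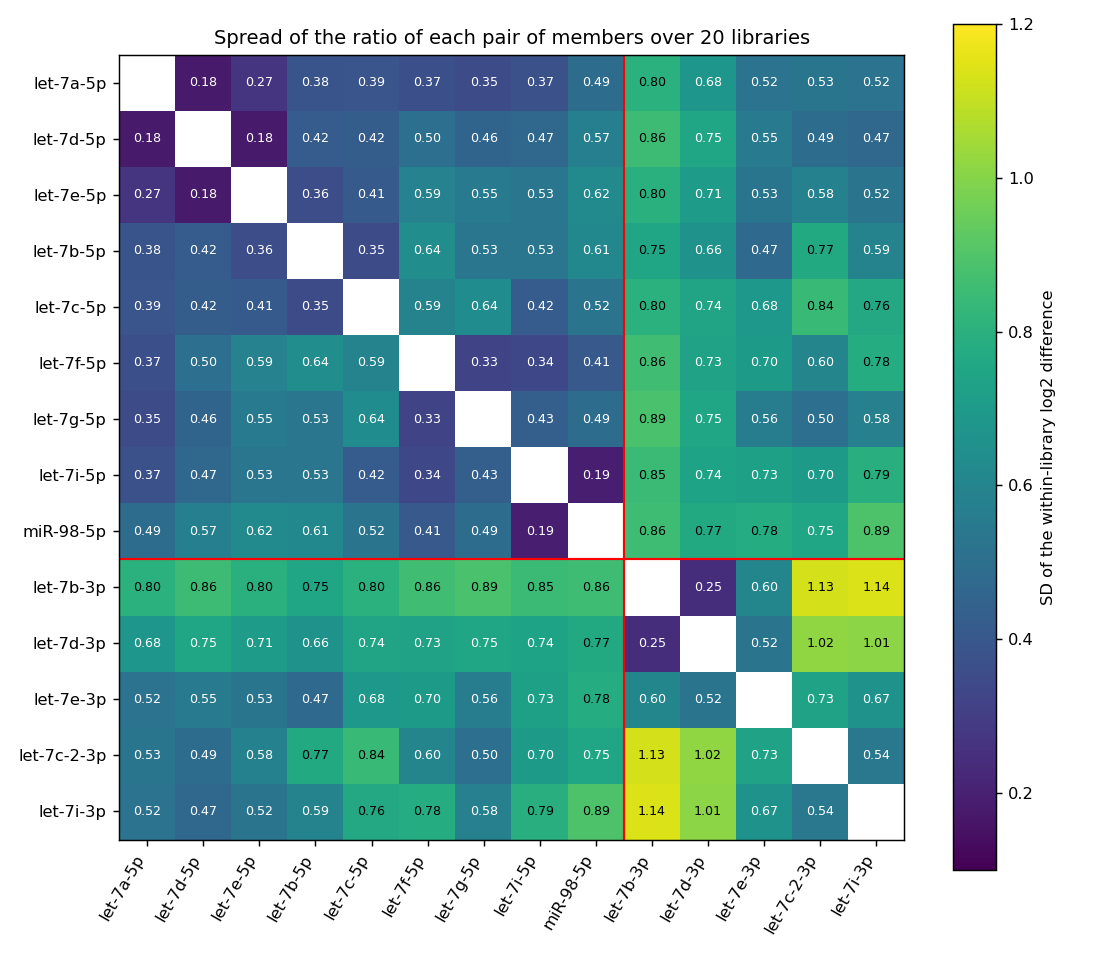
Each cell gives the SD over 20 libraries of the log2 difference between the row and column members, with red lines parting 5p from 3p arms. Dark cells are pairs whose ratio varied least, such as let-7a-5p with let-7d-5p (0.18) and let-7i-5p with miR-98-5p (0.19).

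Of the 4 pairs just named, 1 shared a cluster. miR-98-5p and let-7f-5p, which share an intron of Huwe1 through Mirlet7f-2, had an SD of 0.406. let-7d-5p and let-7f-5p, which share a cluster through Mirlet7f-1, had 0.503. Over 5 pairs of 5p members that share a cluster the median was 0.370, beside 0.456 over 31 pairs that do not. Each of these 5 pairs holds let-7a-5p, let-7c-5p or let-7f-5p, whose reads can also come from a hairpin on another chromosome. No pair is thus from 1 cluster alone, and the medians cannot show what sharing a cluster does. Arms of 1 hairpin were also compared with each other. Their SD was 0.526 for let-7e, 0.747 for let-7d, 0.751 for let-7b, 0.788 for let-7i and 0.840 for let-7c with let-7c-2-3p, whose letters also place it across from let-7a-5p (0.527). The median over 6 pairs of unlike arms from 1 hairpin was 0.749, beside 0.725 over 39 pairs of unlike arms from different hairpins. These SDs depended on vehicle 3 and vehicle 5. Without both, the SD fell to 0.457 for let-7e, 0.568 for let-7d and 0.624 for let-7b. It rose to 0.821 for let-7i, 0.878 for let-7c with let-7c-2-3p and 0.550 for let-7a-5p with let-7c-2-3p. The medians were not recomputed. By base differences, 14 pairs of 5p members with 1 to 2 differences had a median of 0.388 and 20 pairs with 3 to 4 had 0.473.

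For 8 of 14 members, the miRNA with the smallest SD among the 280 others in the table was another member. let-7c-5p was closest to miR-25-3p (0.286), let-7b-5p to miR-28a-5p (0.327) and let-7f-5p to miR-26b-5p (0.286). Outside the family, let-7a-5p and let-7d-5p were closest to miR-674-5p (0.261 and 0.268), and let-7e-5p to miR-1839-3p (0.282). let-7i-5p and miR-98-5p were closest to miR-9-5p (0.243 and 0.324), a miRNA of neurons and neural progenitors, and let-7g-5p to miR-132-5p (0.344).

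Of the miR-99, miR-100 and miR-125 arms encoded beside Mirlet7c-1, Mirlet7e and Mirlet7a-2, only 5p arms were ranked by SD with their let-7 neighbour. Of these arms, all but miR-99a-5p fell in the farther part of the table. Of 11 miR-99, miR-100 and miR-125 arms of either kind listed by name, 7 were measured, and 0 were called between CBD and vehicle (2 higher and 5 lower, median -0.15). Over all 281 miRNAs 0 were called, with 108 higher and 173 lower and a median of -0.08. let-7e-5p had an SD of 0.692 with miR-125a-5p and 0.836 with miR-99b-5p, ranking 152 and 216 of 280. let-7c-5p had 0.554 with miR-99a-5p, rank 55, and 0.823 with miR-125b-5p, rank 177. let-7a-5p had 0.698 with miR-100-5p and 0.662 with miR-125b-5p, ranking 190 and 172. Reads of miR-125b-5p can come from hairpins of both the let-7a-2 and the let-7c-1 regions, so those values are mixtures. let-7a-5p and let-7c-5p are also sums of 2 hairpins each, so only the let-7e-5p pairs have a let-7 side from 1 hairpin. The SD expected from counting reads alone was 0.168 for let-7e-5p with miR-99b-5p. It was 0.101 for let-7c-5p with miR-99a-5p and 0.214 for let-7a-5p with miR-100-5p, and at most 0.039 in the other pairs.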

How the data were processed

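Per the labels' protocols, Trizol RNA (1 ug) was made into libraries with an Illumina TruSeq small RNA kit and size-selected. The submitters' processing notes name mm10, edgeR and limma, and the sources used here do not give the aligner, counter or miRNA catalogue. The authors deposited log2 reads per 1000000 for 281 miRNAs. These were log2((n + 0.5) / (L + 1) × 1000000), so whole reads n were recovered for 100% of values within 1e-06, with L between 0.693 and 1.17 times the listed total. The authors' technical table gives these totals, a count of miRNAs, a scaling ratio of 1 and a run number per library. The authors' comparison table gives, per the file headers, log2 differences, p-values, a t score and a fold ratio (not used), and its mean levels differ from those of the columns.

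The members and lists were chosen with earlier results of these data known. Differences, CBD minus vehicle, were fitted with limma 3.58.1 (R 4.3.3, variance trend, treatment only, two-sided), adjusted by Benjamini-Hochberg over 281 miRNAs, or over 76 arm pairs, at a threshold of 0.05. A filter at 10 reads per 1000000 removed no miRNA, so 14 of 14 members passed. Run-term fits, an exact permutation within runs (12000 relabellings), other scalings, array weights, edgeR 4.0.16 on recovered reads and fits without each library were alternatives. The fit was tested on simulated data. Named miRNAs were all members, the nearest miRNA outside the family of each 5p member and 11 host cluster partners. Others were named after their values were seen. RefSeq names matched 247 of 281 miRNAs. Members had 6 reads or more in each library. Reads carry no molecular identifiers, and libraries also vary beyond counting error.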

Additional observations from a re-analysis of the deposited data

Results flagged for a closer look

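Of 40 groups of 10 values examined (14 levels and 5 arm differences in each group, and the family's share), 2 held a value farther from its neighbours than Dixon's test allows, and chance gives about 1 in 20 groups. let-7i-3p stood at 4.80 (log2 reads per 1000000) in CBD 6, the lowest of 10 CBD libraries, with a gap to the next library of 0.467 of the range, just past the limit. It rested on 6 reads in that library. The log2 difference between let-7e-5p and let-7e-3p was 6.59 in CBD 8, the highest of 10 CBD libraries, with a gap of 0.628 of the range. On the deposited scale, CBD 8 was also the highest CBD library for let-7e-5p and the lowest for let-7e-3p.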

How the results depend on the processing

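The count of members called between CBD and vehicle was 0 of 14 under each alternative run. Over all miRNAs 24 were called with array weights, none of them a member, and 0 under each other alternative. With array weights let-7f-5p (-0.46, adjusted p = 0.0673) and let-7g-5p (-0.33, adjusted p = 0.128) had an unadjusted p under 0.05 by limma, and let-7c-5p differed by 0.06. With array weights and a run term the same members did, let-7f-5p (-0.34, adjusted p = 0.157, limma) and let-7g-5p (-0.41, adjusted p = 0.0949, limma). The median of all miRNAs moved by -0.075 (1 total), 0.080 (median centred) and 0.048 (quantile) on the log2 scale.

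Some signs turned round. Rescaled to 1 total, let-7i-5p was -0.051. Median centred, let-7b-5p was 0.062, let-7d-5p 0.034, let-7e-5p 0.047 and miR-98-5p 0.029. Quantile normalised, let-7d-5p was 0.016 and let-7e-5p 0.037. With array weights, let-7b-5p was 0.0011, let-7d-3p 0.00039, let-7d-5p 0.019, let-7e-3p 0.043, let-7e-5p 0.076, let-7i-3p 0.12 and let-7i-5p -0.0019. With array weights and run together, let-7c-5p was -0.0061 and let-7i-5p -0.14. By edgeR, let-7b-3p was -0.14, let-7e-5p 0.014 and miR-98-5p 0.034. Without vehicle 3 and vehicle 5, a choice made after seeing the data, let-7b-5p was 0.037, let-7d-3p 0.26, let-7e-3p 0.090, miR-98-5p 0.015 and the arm differences of let-7d and let-7e -0.33 and -0.10. There let-7b-3p was 0.53, with an unadjusted p under 0.05 (adjusted p = 0.203, limma), and the arm difference of let-7b was -0.49. The cause was not tested.

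Leaving out each library in turn crossed 0 for let-7b-5p (-0.093 to 0.048), let-7d-3p (-0.18 to 0.074), let-7d-5p (-0.12 to 0.036), let-7e-3p (-0.19 to 0.013), let-7e-5p (-0.12 to 0.068), let-7i-5p (-0.085 to 0.11), miR-98-5p (-0.20 to 0.064) and the arm differences of let-7b (-0.32 to 0.026), let-7d (-0.14 to 0.22) and let-7e (-0.067 to 0.17). It crossed 0 for no other member or arm pair, but moved let-7b-3p between 0.013 and 0.34, let-7i-3p between -0.34 and -0.14 and the arm difference of let-7i between 0.12 and 0.43. The number of members that differ between runs was 4, again 4 when median centred, 6 when rescaled to 1 total (2 of them 5p arms), and 1 with vehicle libraries alone, where fewer samples enter. No paired analysis was possible because mouse numbers are unique and replicate numbers only name samples. The order of the members was the same when rescaled, and without run 3 let-7d-5p and let-7g-5p changed places. Pseudocounts for linear values were not applicable to the log2 levels. Low reads limit let-7i-3p (at least 6), let-7c-2-3p (at least 7) and let-7e-3p (at least 14).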
